A study of Rattus norvegicus with 20 samples.

Results

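The miR-15 family of microRNAs (miRNAs) was followed in rats with a chronically injured sciatic nerve. Its 6 members on the array, rno-miR-15b, rno-miR-16, rno-miR-195, rno-miR-497, rno-miR-322 and rno-miR-503 (rno, for rat, is left out below), were taken by name from the 350 rat miRNAs measured, and all 6 names were found. The RNA came from the soleus muscle and the ipsilateral dorsal root ganglia (DRGs) of adult male Sprague-Dawley rats, on 20 single-colour arrays. Each tissue had 3 arrays for denervation (the nerve cut, a piece removed and the stump turned away, 6 months before), 3 for entrapment (a loose silastic tube around the nerve for 6 months), 3 for decompression (the tube taken off after 6 months and the rats kept for 3 months more) and 1 for the sham operation. The labels give no time for the sham rats, and do not say whether the sham array holds the RNA of 1 rat or of several. Nothing given here ties a soleus array to a DRG array of the same rat. With 1 sham array per tissue, the spread between sham rats was not measured, and every test against sham assumed that it equals the spread within the other groups.

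miRNAs guide a silencing complex to messenger RNAs that pair with their seed, the bases from position 2 on. Members of the miR-15 family share a seed and are known for holding down cyclins, cyclin-dependent kinases and other genes that drive cells through division. miR-15b and miR-16 are made in most tissues, miR-195 and miR-497 are known from muscle and heart as cells leave the cycle after birth, and miR-322 and miR-503 are known to rise as myoblasts stop dividing and fuse.

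The mature sequences are shown because the shared seed defines the family. The members sit in 3 clusters, and below, partners within a cluster also parted from each other in soleus. The sequences are RefSeq's on the assembly GRCr8, 5′ to 3′, with the seed in capitals (bases 2 to 8). The array's names carry no arm, and each was matched to the 5p arm, since the array lists the other strand of the miR-322 hairpin separately as miR-322*.
miR-15b: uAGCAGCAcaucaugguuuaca
miR-16: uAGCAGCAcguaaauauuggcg
miR-195: uAGCAGCAcagaaauauuggc
miR-497: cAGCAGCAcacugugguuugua
miR-322: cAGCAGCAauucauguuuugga
miR-503: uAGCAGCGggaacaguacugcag

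The first 5 members have the seed AGCAGCA, and no other of the 693 mature rat names in the reference table has it. miR-503 has AGCAGCG, which is A8G against miR-16, counted from the 5′ end. All 6 share bases 2 to 7. miR-322 and miR-497 start with U1C against miR-16. Outside the seed the members are less alike. miR-195 equals miR-16 at 19 of 21 bases, miR-15b at 14 of 22, miR-322 and miR-503 at 12 of 22, and miR-497 at 11 of 22. Cross-hybridization between miR-195 and miR-16, the most alike pair with miR-16, was not tested.

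miR-15b (chr2:155555197-155555218, + strand) and miR-16 (chr2:155555343-155555364) lie 124 bases apart within the span of Smc4, a condensin subunit gene. miR-497 (chr10:55450172-55450193, + strand) and miR-195 (chr10:55450509-55450529) lie 315 bases apart, in no other gene of the table. miR-503 (chrX:137725899-137725921, − strand) and miR-322 (chrX:137726198-137726219) lie 276 bases apart within the span of the long non-coding RNA LOC102550366. The table gives gene spans only, so whether a site is exonic or intronic is not stated here. The X chromosome cluster goes on with miR-351, miR-542 and miR-450a.

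Levels are given as scaled signals, the deposited intensity of a miRNA divided by the array's 75th percentile and brought back to the tissue's typical brightness. A level of one miRNA cannot be set against that of another, since each has its own probes. In soleus that percentile, taken over miRNAs detected on every array, varied 6.20-fold, with the sham array the dimmest at 409 and denervation 3 next to it at 413, and the percentile over all miRNAs varied 1.62-fold in the DRGs. Between 134 and 194 miRNAs were detected on a soleus array and between 183 and 233 on a DRG array. The muscle miRNAs (miR-1, miR-133a, miR-133b and miR-206) summed to 59374 or more on every soleus array and to 380 or less on every DRG array, and the neuronal list (miR-124, miR-183, miR-182, miR-96 and miR-9) to 37.2 or less in soleus and 3136 or more in the DRGs, each on its own tissue's scale. Of 45 control features on the array, 12 in soleus and 24 in the DRGs had sham and denervation on one side and both tube groups, entrapment and decompression, on the other with no overlap, so injury and array handling cannot be told apart in comparisons across that line. In the DRGs, the authors' table of processed values holds under each entrapment name the values of a decompression scanner file, and the reverse. The groups below follow the labels of the scanner files. If the table is right, every DRG statement on entrapment holds for decompression and the reverse.

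In soleus muscle, miR-322 rose over sham 7.77-fold after denervation, 9.38-fold after entrapment and 10.3-fold after decompression, and miR-195 rose 3.78-fold after entrapment and 3.31-fold after decompression (1 sham array, n = 3 per injury group). miR-16 and miR-497, the cluster partners of miR-15b and miR-195, stayed within 0.51 of sham on the log2 scale and passed no test. That held in the scaling used, and their differences were larger under others. miR-15b was higher than sham on all 9 injury arrays without passing the test, except under some of the alternatives given below. No member passed a test between denervation, entrapment and decompression. Of the 5 members tested, 1 passed after denervation, where 11% of the 173 miRNAs tested were higher and 26% passed in either direction, and 2 each after entrapment and decompression, where 9.83% were higher in each and 29.5% and 31.8% passed in either direction. All of these members were higher than sham and 0 were lower, while 15%, 19.7% and 22% of all miRNAs were lower. The family's median log2 difference from sham was 1.32 after denervation, 1.27 after entrapment and 0.96 after decompression, against -0.07, -0.37 and -0.29 over all miRNAs tested. Taking the percentile over all miRNAs moved the array-wide medians to 0.22, 0.32 and 0.48, and turned the split of calls after entrapment from 34 lower and 17 higher to 16 lower and 33 higher, and after decompression from 38 and 17 to 20 and 37. The files of denervation 1 and 2 share a layout with the sham file. Leaving both out leaves 1 denervation array against 1 sham array, so layout and injury cannot be told apart that way.

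The sham array read 23.3 for miR-322, as a scaled signal, against 165, 164 and 219 on denervation 1 to 3, 169, 255 and 241 on entrapment 1 to 3, and 224, 308 and 200.3 on decompression 1 to 3. All 9 injury arrays lay far above sham, and the injury groups overlapped with each other. The log2 difference from sham was 2.96 ± 0.40 after denervation (SE from limma, adjusted p = 0.000845), 3.23 ± 0.40 for entrapment (adjusted p = 0.000374) and 3.37 ± 0.40 for decompression (adjusted p = 0.000301). With the authors' processed values the differences were 4.90, 5.42 and 4.09 and did not pass (adjusted p = 0.287, 0.177 and 0.398). Those values are the scanner signals divided by a constant per array, and the constant of decompression 2 was 1222 against 38.7 to 100 on the other soleus arrays. On the dim sham array the unscaled signal was 8.72 with a scanner error of 2.32 and was called detected. On denervation 3, an array as dim, it was 82.6. Whether the single sham array is typical for miR-322 cannot be known from these data. The order of levels was sham, denervation, entrapment, decompression, and the neighbours within the injury groups did not differ beyond their spread, with log2 differences of 0.27 (95% interval -0.37 to 0.91) and 0.14 (-0.50 to 0.77).

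miR-195 read 338 on sham, 718, 736 and 1134 after denervation, 1512, 1292 and 1069 after entrapment, and 979, 1738 and 821 after decompression. All 9 injury arrays were more than 2-fold above sham. The log2 difference was 1.92 ± 0.48 for entrapment (adjusted p = 0.0177), 1.73 ± 0.48 for decompression (adjusted p = 0.0256) and 1.32 ± 0.48 after denervation (adjusted p = 0.0797, and 0.0386 without decompression 2). With the replicate number as a block neither call held (adjusted p = 0.0814 and 0.0965), nor did the decompression call without scaling (adjusted p = 0.0784). By a rule of 2-fold on each of the 3 arrays, which followed the study's threshold, miR-195 and miR-322 were the members higher than sham in each injury group, beside 15.6%, 11% and 13.3% of all miRNAs tested after denervation, entrapment and decompression. No member was lower by that rule, against 18.5%, 27.2% and 27.2% of all miRNAs. The paper lists miR-15b and miR-16 as down-regulated in soleus after entrapment and after decompression. Here miR-15b was above sham on every array of both groups, and miR-16 had arrays on both sides of sham in each. The reason for this difference from the paper was not tested.

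miR-497, which lies beside miR-195, read 560.1 on sham, 564, 638 and 745 after denervation, 1036, 753 and 649 after entrapment, and 651, 1065 and 549.6 after decompression. Its log2 difference from sham was 0.20, 0.51 and 0.37 in that order (adjusted p = 0.789, 0.435 and 0.563). With the percentile over all miRNAs the entrapment difference was 1.31 and passed (adjusted p = 0.0392). The difference between both members within an array does not depend on scaling. Relative to sham, miR-497 minus miR-195 was -1.11 ± 0.20 (SD, n = 3) on the log2 scale after denervation, -1.41 ± 0.12 after entrapment and -1.35 ± 0.07 after decompression, and it was below 0 on all 9 arrays. Over the 9 injury arrays both still varied together (Pearson's r = 0.926), and both read highest on entrapment 1 and decompression 2.

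miR-15b read 42.03 on sham, 141, 164 and 80.3 after denervation, 110.2, 82.5 and 116 after entrapment, and 118, 62.0 and 74.8 after decompression. Its log2 difference was 1.55 ± 0.50 after denervation (adjusted p = 0.0504), 1.27 ± 0.50 for entrapment (adjusted p = 0.0934) and 0.96 ± 0.50 for decompression (adjusted p = 0.194). Denervation 3 held the lowest of the 3 denervation values, and without that array the denervation difference was 1.85 and passed (adjusted p = 0.0165). It also passed without decompression 2 (adjusted p = 0.0458), which with miR-195 brought the count of members after denervation to 3. After entrapment miR-15b passed without denervation 3 (adjusted p = 0.0354). The denervation difference passed with detection on all arrays (adjusted p = 0.0421), the intensity trend (0.0428) and the pseudocount (0.0494). It also passed with loess (0.0475), quantile normalization (0.0168) and the percentile over all miRNAs (0.0297). Under the last 2, miR-15b passed after entrapment (0.0146 and 0.0191) and decompression (0.0230 and 0.0298), and with loess after entrapment (0.0430).

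miR-16 was the flattest member in soleus. It read 1820.1 on sham, 1908, 1742 and 1355 after denervation, 2172, 1772 and 2454 after entrapment, and 2223, 1688 and 2266 after decompression, with injury arrays on both sides of sham in each group. Its log2 differences were -0.14, 0.22 and 0.17 (adjusted p = 0.815, 0.686 and 0.759), with 95% intervals from -0.97 to 0.69, from -0.61 to 1.04 and from -0.66 to 0.99. Over the other settings, apart from single arrays left out and the processed values, the entrapment difference reached 1.85 and did not pass. Within arrays and relative to sham, miR-15b exceeded its neighbour miR-16 by 1.69 ± 0.33 (SD, n = 3) after denervation, 1.06 ± 0.07 after entrapment and 0.79 ± 0.36 after decompression on the log2 scale. miR-322 exceeded miR-16 by 3.099 ± 0.49, 3.01 ± 0.45 and 3.20 ± 0.56, and this difference too is free of the scaling.

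miR-503, the neighbour of miR-322 with the changed eighth base, was near background in soleus. It was detected on entrapment 1 and 2 only, at 5.03 and 7.13, and was not tested there. The other strand of the hairpin, miR-322*, was detected on 4 soleus arrays, denervation 1 and 2 and entrapment 1 and 2, at 2.74 to 6.54. It was not above background on sham, so whether it moved with miR-322 cannot be read from these arrays. Of the cluster's further members, miR-542-3p and miR-542-5p were tested and 0 of 2 passed limma's test in any soleus comparison (by the 2-fold rule miR-542-3p was lower after entrapment and decompression, against a sham value of 11.6 that was not detected), miR-450a was detected on 2 of 10 arrays and miR-351 on none.

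**Figure D1:**
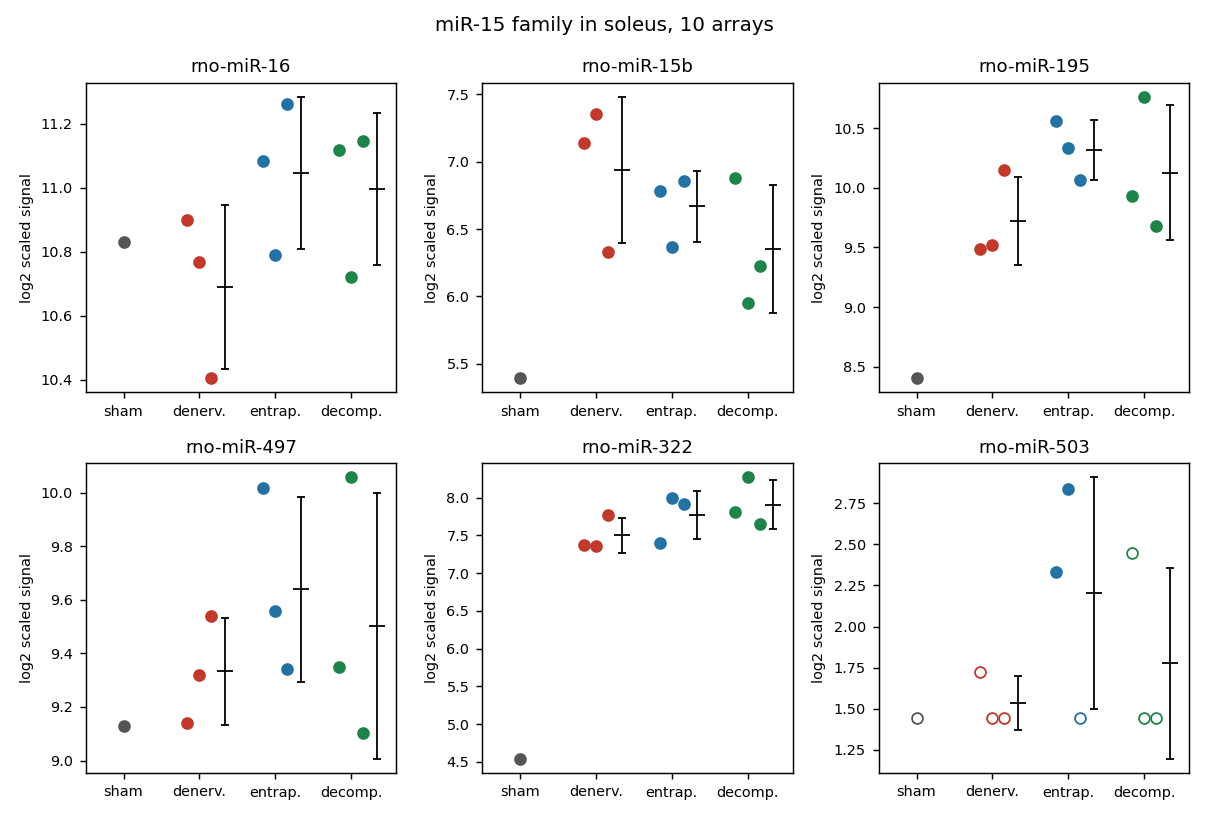
Log2 scaled signal of the 6 family members on the 10 soleus arrays (1 panel per miRNA, each with its own vertical axis), by group. Filled points are arrays where the miRNA was detected and open points arrays where it was not, set to the floor where they lay below it; bars show mean ± SD of 3 arrays. miR-322 stands near 4.54 on sham and between 7.36 and 8.27 on the injury arrays, while miR-16 has injury arrays on both sides of sham.

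Between injury groups in soleus, 0 of 5 members passed limma's test, and none had an unadjusted p under 0.05. Of all miRNAs tested, 11.6% differed between entrapment and denervation, 13.9% between decompression and denervation (12.7% lower and 1.16% higher), and 0 of 173 between decompression and entrapment (6 at an unadjusted p under 0.05). The largest member difference was that of miR-195 between entrapment and denervation, 0.60 on the log2 scale (95% interval -0.17 to 1.37). For miR-15b, decompression minus denervation was -0.59 (95% interval -1.39 to 0.22).

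Other signals were read beside miR-322 in soleus. The muscle list summed to 207578 on sham, 101273 to 360558 after denervation, 59374 to 120926 after entrapment and 104530.0 to 107973 after decompression, below sham on all arrays of both tube groups. Of its 4 miRNAs miR-133b was lower in each injury group, by log2 differences of -1.99, -2.14 and -1.75 (adjusted p = 0.0167, 0.0119 and 0.0250), and miR-1 was higher after denervation, by 3.001 (adjusted p = 0.0358). The list did not fall as a whole in the tube groups. Its largest log2 differences from sham were 1.39 after entrapment and 1.55 after decompression, and neither passed. miR-126, which marks endothelium, was 379 on sham and 1065 to 1744 on the injury arrays, higher by 1.64, 1.90 and 1.93 on the log2 scale (adjusted p = 0.0145, 0.00865 and 0.00594). Of 103 other miRNAs detected on all 10 arrays it was the one most like miR-322, with r = 0.986 over 10 arrays and 0.964 over the 9 injury arrays. The second, miR-26b (r = 0.917), had r = -0.46 without sham, so its likeness rests on that array. For miR-195 the most alike were miR-24 (r = 0.920, 0.923 without sham) and miR-24-2* (0.903 and 0.907), for miR-497 miR-23a (0.898 and 0.922) and again miR-24-2*. The points of these correlations share their array, its scaling and 1 sham value. The red blood cell miRNAs miR-144 and miR-451 summed to 1244 on sham, 231 to 2383 after denervation, 494 to 855 after entrapment and 207 to 1265 after decompression, overlapping between groups. The leukocyte list summed to 718 on sham, 496.5 to 799 after denervation, 359 to 473 after entrapment and 329 to 463 after decompression, and the mesenchymal list to 658, 731 to 1078, 556 to 1088 and 441 to 601. Of the leukocyte list 1 of 4 measured miRNAs was higher after denervation and 1 of 4 lower after entrapment and after decompression, and of the mesenchymal list 1 of 3 was higher in each injury group and 1 lower after decompression. The part of any of these cells, muscle fibres included, in the miR-322 and miR-195 differences was not tested. In whole tissue, a change in the share of a cell type and a change in the RNA per cell cannot be told apart.

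In the DRGs the X chromosome members differed between denervation and the tube groups, as did 41.1% (entrapment) and 36.5% (decompression) of all miRNAs tested. These comparisons cross the line that 24 of the 45 control features drew. miR-322 was higher on every denervation array than on any entrapment or decompression array, with means 1.79-fold lower after entrapment and 1.97-fold lower after decompression. miR-503 was detected on all 3 denervation arrays and on 1 of the 6 others. miR-15b ran the opposite way between decompression and denervation. No member passed against sham in any injury group, where miR-503 had log2 differences of -1.65 after entrapment and -1.84 after decompression. miR-16, miR-195 and miR-497 differed from sham by at most 0.44 on the log2 scale.

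Against sham, 0 of 6 members passed after denervation, where 0.457% of the 219 miRNAs tested did, 0 of 6 after entrapment, where 19.6% did (17.4% lower, 2.28% higher), and 0 of 6 after decompression, where 18.3% did (16.4% lower, 1.83% higher; limma). At an unadjusted p under 0.05 there were 2 members after denervation (miR-16 and miR-195, both higher), 1 after entrapment (miR-497, higher) and 2 after decompression (miR-497, higher, and miR-503, lower). By the rule of 2-fold on each array the count was 0, 0 and 1, the last being miR-503, beside 0.913%, 11% and 13.7% of all miRNAs lower by that rule. miR-497 passed without entrapment 1 (adjusted p = 0.0191 after entrapment and 0.0437 after decompression) and without decompression 1 (0.0499 after decompression), and miR-503 passed after entrapment without entrapment 3 (0.0473).

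miR-322 in the DRGs read 106 on sham, 146, 207 and 145 after denervation, 75.4, 94.3 and 107 after entrapment, and 62.2, 101 and 91.5 after decompression. The denervation arrays lay above the others, and sham lay just under the highest entrapment value. The log2 difference from denervation was -0.84 ± 0.22 for entrapment (adjusted p = 0.0200) and -0.98 ± 0.22 for decompression (adjusted p = 0.00998). Of all miRNAs, 32.9% were lower in entrapment than in denervation and 27.9% were lower in decompression. Higher were 8.22% and 8.68% (41.1% and 36.5% passed in either direction). The 2 of 6 members lower in each comparison were close to the shares of lower miRNAs. Without denervation 2 or without entrapment 1, the entrapment difference did not pass (adjusted p = 0.0622 and 0.0668).

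miR-503 read 14.4 on sham and 14.4, 21.01 and 14.97 after denervation, all detected. After entrapment it read -0.47, 4.76 and 8.93, of which the last was detected, and after decompression 0.21, 4.203 and 6.82, none detected. The fitted difference from denervation was -1.85 on the log2 scale for entrapment (adjusted p = 0.0263), with 1 of 3 entrapment arrays above background and entrapment 1 at the floor, so its size depends on the floor. For decompression the fitted level was 4.11-fold lower (adjusted p = 0.0166), with each undetected array at its own signal or at the floor, whichever was higher. That size is no lower bound, since the log2 difference was -1.44 under quantile normalization. miR-503 entered the test through sham and denervation, where it is high, and its call is no support for the count of members. Among the 5 members detected on all 10 DRG arrays, 1 differed from denervation in entrapment and 2 in decompression. Against sham the fitted level of miR-503 was 3.59-fold lower after decompression (adjusted p = 0.119). The entrapment difference did not pass without denervation 1, 2 or 3 or entrapment 1 or 2 (adjusted p up to 0.0811), and the decompression difference not without decompression 1 (0.0560) or denervation 2 (0.0628). Both differences from denervation were also lost under quantile normalization (adjusted p = 0.190 and 0.155), no filter (0.0697 and 0.0513) and the pseudocount (0.0560 and 0.0507). The entrapment difference was lost under loess too (0.0656).

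Of the other X chromosome miRNAs, miR-322* and miR-450a passed as lower than denervation in both tube groups. miR-322* read 23.3 on sham, 16.6 to 22.5 after denervation, 4.01 to 11.9 after entrapment and 4.41 to 10.8 after decompression, and its differences from denervation were -1.40 (adjusted p = 0.0359) and -1.39 (adjusted p = 0.0384) on the log2 scale. These calls were lost in 6 and 5 of the 9 fits that left out 1 array, among them those without each denervation array (adjusted p up to 0.102 and 0.108), and for miR-322* also under quantile normalization, loess and no filter (up to 0.181 and 0.159). miR-450a was detected on sham at 13.4 and on all 3 denervation arrays at 9.53 to 11.7, and on no entrapment or decompression array. By the fit it was 4.29-fold lower than sham in entrapment (adjusted p = 0.0201) and 5.15-fold lower in decompression (adjusted p = 0.0130). It was 3.45- and 4.15-fold lower than denervation (adjusted p = 0.00469 and 0.00225), and these sizes depend on the floor. It was tested only because sham and denervation, where it is high, had detected it, and under quantile normalization miR-450a passed against neither sham (adjusted p = 0.134 and 0.228) nor, in decompression, denervation (0.108). With the pseudocount its decompression difference from sham did not pass (0.0595). miR-542-3p was 18.9 to 27.9 after denervation and 4.67 to 15.3 on the other 6 injury arrays, with log2 differences of -1.32 and -1.33 that did not pass (adjusted p = 0.0608 and 0.0640). miR-542-5p overlapped between groups, and miR-351 was not detected on any DRG array.

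The X chromosome miRNAs other than miR-322 were dim in the DRGs, at 35.5 or less, and fewer miRNAs were detected on the entrapment and decompression arrays (183 to 200) than on the denervation arrays (213 to 225). The leukocyte list summed to 899 on sham, 679.7 to 1109 after denervation, 483 to 648 after entrapment and 729 to 963 after decompression, and 3 of its 4 measured miRNAs were lower in entrapment than in denervation. The part of these in the miR-322 and miR-503 differences was not tested. The direction of all calls in these 2 comparisons also depended on scaling. Of the calls between entrapment and denervation, 72 were lower and 18 higher here, against 40 lower and 49 higher after quantile normalization, and between decompression and denervation 61 and 19, against 37 and 46. miR-322 kept its call under quantile normalization in both, with log2 differences between -1.29 and -0.76 for entrapment and between -1.41 and -0.87 for decompression over the settings that used the scanner signals of all arrays. With no filter its entrapment call was lost (adjusted p = 0.0507).

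**Figure D2:**
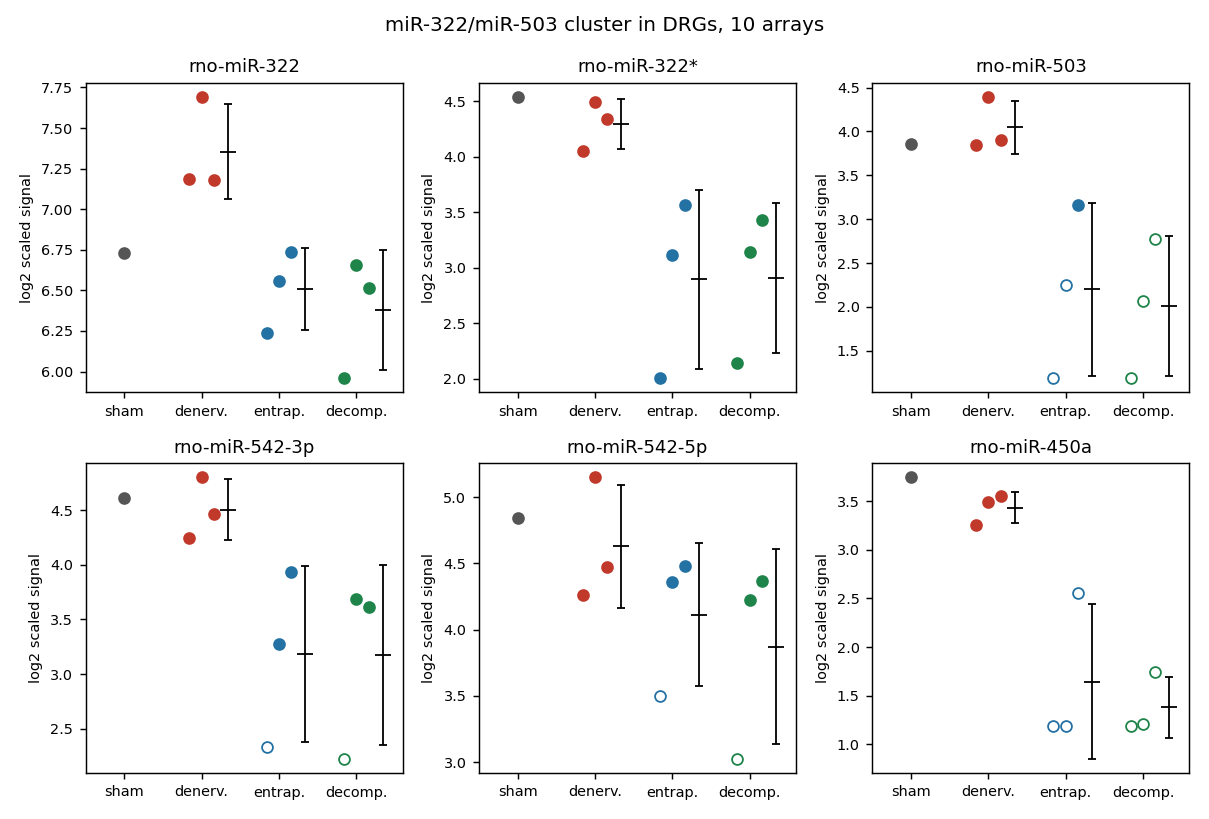
Log2 scaled signal of miR-322, miR-503 and their cluster neighbours on the 10 DRG arrays (1 panel per miRNA, each with its own vertical axis), by group. Open points are arrays where the miRNA was not detected, set to the floor where they lay below it; bars show mean ± SD of 3 arrays. In the panels of miR-322, miR-322*, miR-503, miR-542-3p and miR-450a every denervation array lies above every entrapment and decompression array.

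miR-15b in the DRGs read 127 on sham, 103, 104 and 118 after denervation, 154, 126 and 112 after entrapment, and 192, 154 and 133 after decompression. Decompression lay above denervation without overlap, by 0.54 ± 0.16 on the log2 scale (adjusted p = 0.0310), and it was the only member higher there. The call was lost without decompression 1 or 2 or denervation 1 or 2 (adjusted p up to 0.0958) and under 5 of the other settings. The red blood cell miRNA miR-451 moved with it, from 579 to 1332 after denervation to 1239.96 to 3668 after decompression, with r = 0.859 over 10 arrays and 0.938 over the 9 injury arrays. With miR-144 it summed to 3001 on sham, 686 to 1548 after denervation, 873 to 2871 after entrapment and 1411 to 4244 after decompression, and 0 of 2 passed between decompression and denervation. miR-92a was as alike (0.861 and 0.885). The part of red blood cells in the miR-15b difference was not tested. miR-15b and miR-322 ran against each other over the DRG arrays (r = -0.86), a description over arrays that share 4 groups.

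miR-16, miR-195 and miR-497 passed no test between groups in the DRGs. miR-16 lay between 1404 on sham and 1789.9 on denervation 3, miR-195 between 432 on sham and 586 on denervation 3, and miR-497 between 330.2 on sham and 496 on entrapment 2. For each of the 3 the sham array was the lowest of 10, and the differences from sham were 0.10 to 0.29, 0.17 to 0.37 and 0.31 to 0.44 on the log2 scale. None of these passed, the nearest being miR-497 after entrapment (adjusted p = 0.0635). Under quantile normalization miR-497 did pass after denervation, entrapment and decompression (adjusted p = 0.0366, 0.00368 and 0.00636). With loess it passed after entrapment and decompression (0.0167 and 0.0252), and with the other percentile set after entrapment (0.0313). Within arrays and relative to sham, miR-497 minus miR-195 was -0.06 ± 0.08, 0.19 ± 0.05 and 0.24 ± 0.04 (SD, n = 3).

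miR-103 and miR-107, which hold the AGCAGC motif 1 base earlier (seed GCAGCAU), did not pass in any comparison between soleus groups (0 of 2). miR-107 was 234 on sham and 242 to 375 on the entrapment and decompression arrays, with log2 differences of 0.29 and 0.57 (adjusted p = 0.625 and 0.290), and for miR-107 after decompression 1.36 with the percentile over all miRNAs (adjusted p = 0.0224). In the DRGs miR-103 was higher by 0.25 in decompression than in denervation (adjusted p = 0.0428, lost in 7 of the 9 fits that left out 1 array, with adjusted p up to 0.132, under the block and with the processed values, and a log2 difference of -0.18 without scaling), and miR-107 by 0.23 (adjusted p = 0.0626). Between decompression and entrapment in the DRGs, 0 of 6 members and 0 of 219 miRNAs passed, with 0 members and 9 miRNAs at an unadjusted p under 0.05. The member differences there had 95% intervals no wider than from -0.65 to 0.65, apart from miR-503 (-1.41 to 1.03).

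**Figure D3:**
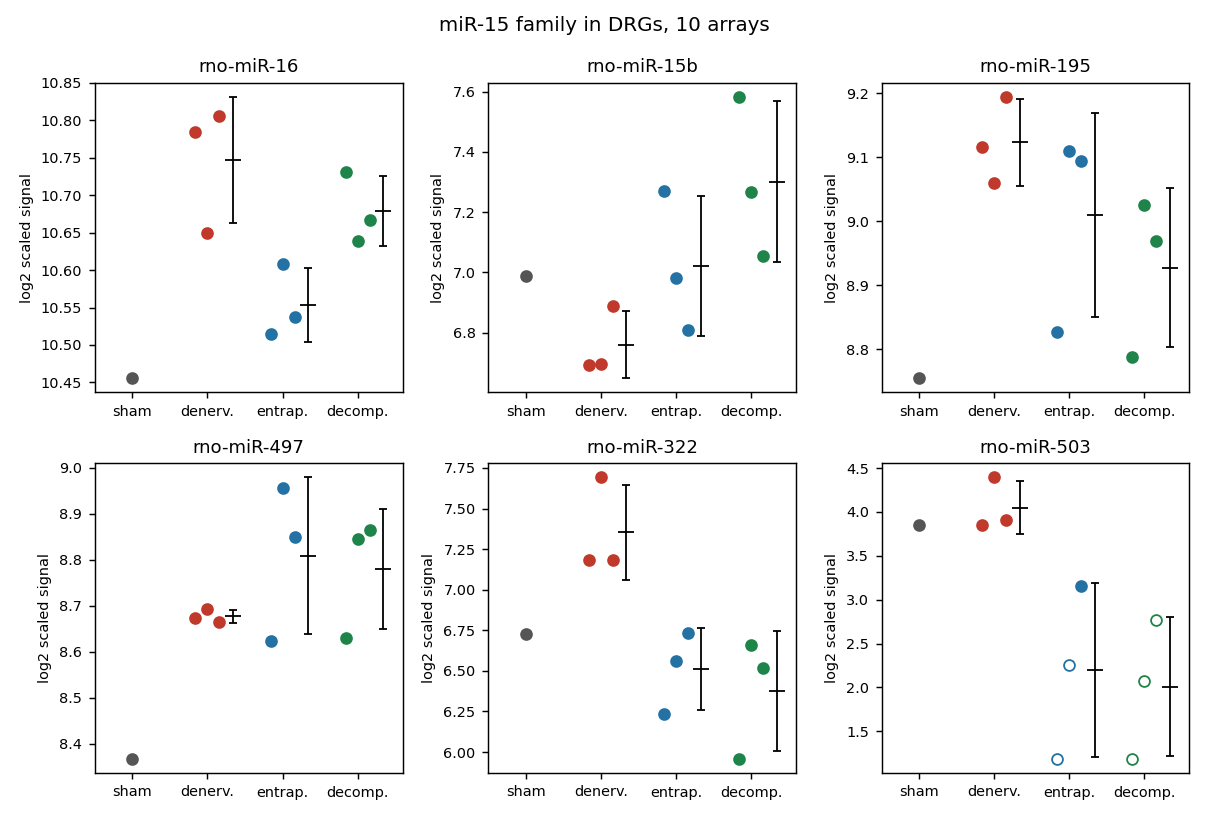
Log2 scaled signal of the 6 family members on the 10 DRG arrays (1 panel per miRNA, each with its own vertical axis), by group, with filled points for detected and open points for not detected; bars show mean ± SD of 3 arrays. The sham array is the lowest of 10 for miR-16, miR-195 and miR-497, and miR-322 and miR-503 are lowest after entrapment and decompression.

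All 20 arrays were also fitted together, to ask whether an injury moved a member by unequal amounts in the 2 tissues. miR-322 did in all 3 injuries. Its difference from sham was larger in soleus than in the DRGs by 2.34 ± 0.48 after denervation (adjusted p = 0.00388), 3.25 ± 0.48 for entrapment (adjusted p = 0.000187) and 3.56 ± 0.48 for decompression (adjusted p = 8.55e-05) on the log2 scale. On the common scale the sham arrays read 19.7 in soleus and 118 in the DRGs. miR-195 also differed after entrapment, by 1.47 (adjusted p = 0.0317), and after decompression, by 1.40 (adjusted p = 0.0401), and miR-15b after denervation, by 1.77 (adjusted p = 0.0368). miR-16 and miR-497 did not pass, with differences between -0.43 and -0.07. For miR-503 the values were -0.08, 2.34 and 2.16 (adjusted p = 0.973, 0.125 and 0.142), on a soleus side near background. In each injury 2 of 6 members passed, beside 8.7%, 8.7% and 9.13% of 230 miRNAs with a larger soleus difference and 15.2%, 19.1% and 19.1% with a smaller one (23.9%, 27.8% and 28.3% in either direction). These tests share the sham arrays with the comparisons above.

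**Figure D4:**
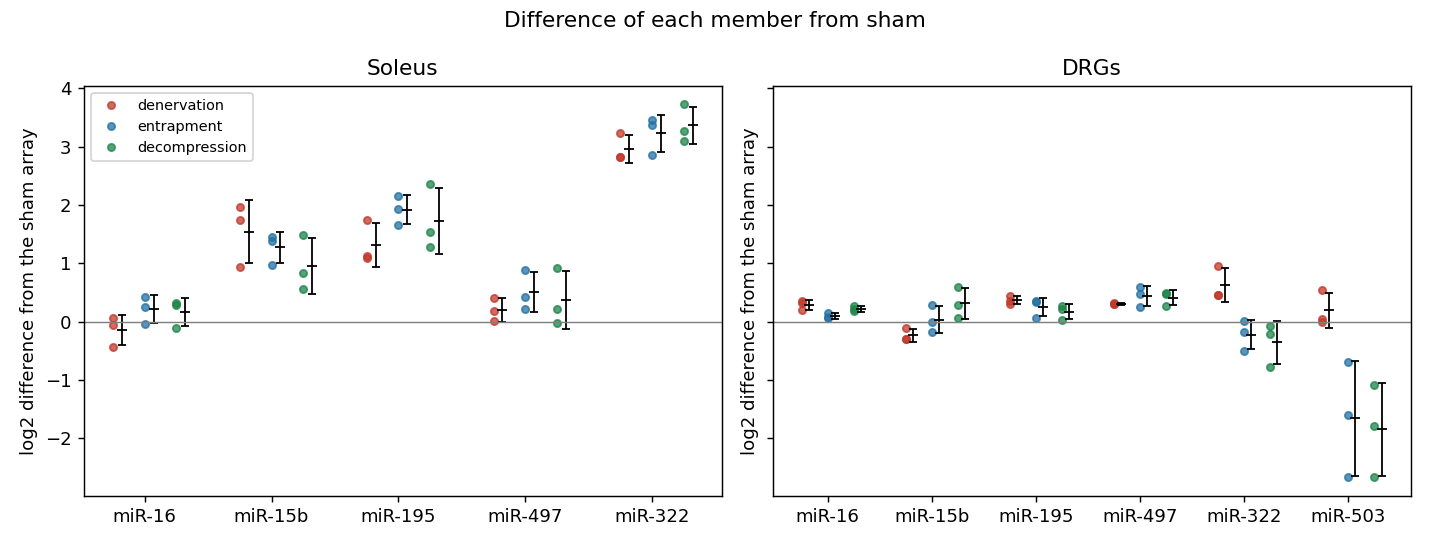
Log2 difference of each member from the sham array of its tissue, for 9 soleus arrays (left) and 9 DRG arrays (right) on 1 vertical scale, coloured by injury; bars show mean ± SD of 3 arrays and the grey line marks the sham array. miR-503 is not drawn for soleus, where it was not tested. miR-322 lies between 2.82 and 3.73 in soleus and between -0.77 and 0.96 in the DRGs.

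Between the tissues themselves, over the injury groups, miR-195 was higher in soleus than in the DRGs by 0.53 ± 0.14 (adjusted p = 0.00248) and miR-322 by 0.47 ± 0.14 (adjusted p = 0.00596) on the log2 scale, while soleus minus DRG was -0.88 ± 0.17 for miR-15b (adjusted p = 0.000181) and -0.26 ± 0.10 for miR-16 (adjusted p = 0.0230). miR-503 passed as lower in soleus (adjusted p = 0.00106), where it was detected on 2 of 10 arrays, so the size of its difference is set by the floor. The size and, for miR-15b, miR-16 and miR-503, the direction depended on the common scale. miR-16 was higher in soleus by 0.72 when the percentile was taken over all miRNAs (adjusted p = 9.34e-06), miR-15b higher by 0.10 in the same setting, and miR-503 higher by 0.09 after quantile normalization. Over all miRNAs the median tissue difference was -0.997 on the scale used and -0.09 with the percentile over all miRNAs, and 83% of 230 miRNAs passed (62.2% lower, 20.9% higher in soleus), so 5 of 6 members passing is close to the rest of the array. The split of 143 lower and 48 higher became 87 and 92 after quantile normalization.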

How the data were processed

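Single-colour Agilent rat miRNA arrays were scanned and read by the authors with Agilent Feature Extraction 9.5.3, and the deposited intensity is its total gene signal, 1 value per miRNA and array, with a detection flag. The labels describe Cy3-CTP amplification and the methods a pCp-Cy3 ligation. The authors' table of processed values holds the same signal on a linear scale divided by 1 constant per array, for which no rule was found. In soleus the constant was 38.7 to 100 on 9 arrays and 1222 on decompression 2. This table was used as an alternative only. Its DRG entrapment and decompression columns follow scanner files of the other group.

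From the intensities, each array was divided by its 75th percentile (soleus over 108 miRNAs detected on all arrays, DRGs over 348, both tissues together over 102), brought back to the median percentile, set to a floor (2.72, 2.28 and 2.32) and taken to log2. miRNAs detected on at least 3 arrays were tested (173, 219 and 230). The test was that of limma 3.58.1 (R 4.3.3), with group as the only term, over the 10 arrays of each tissue or over all 20, and p-values were two-sided and Benjamini-Hochberg adjusted over all miRNAs tested, with a threshold of 0.05. Replicates are separate arrays of a group. The number of arrays limits the precision. Figures were drawn with matplotlib 3.10.9.

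The members, the marker lists and the tests were chosen with earlier results of these data known. Named are all members, the other strands of their hairpins, their X chromosome neighbours, miR-103 and miR-107, the marker lists, and per member the 2 miRNAs most alike over 10 arrays. On simulated data with 40 miRNAs changed by 2 on the log2 scale, the test recovered 27 for soleus entrapment against sham (1 false). It recovered 36 for soleus entrapment against denervation (3 false), 40 for DRG entrapment against sham (2 false) and 40 against denervation (1 false). For the tissue difference after entrapment it recovered 22 (1 false). The simulation gave sham the same spread as the other groups, so it does not test that assumption. Alternatives were no scaling, quantile normalization, rank-consistent loess, the other set for the percentile, no filter, detection on all arrays, a pseudocount, the processed values, an intensity trend, the replicate number as a block, the 2-fold rule, and each injury array left out. Leaving out soleus denervation 1 and 2, whose files share a layout with the sham file, was added after seeing the data.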

Additional observations from a re-analysis of the deposited data

Results flagged for a closer look

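The following differences between the tissues passed the test of the difference itself in the fit of all 20 arrays (limma, Benjamini-Hochberg adjusted over 230 miRNAs). Each is the log2 difference from sham in soleus minus that in the DRGs. For miR-322 it was 2.34 after denervation, 3.25 after entrapment and 3.56 after decompression, and the soleus difference was above 0 on 9 of 9 arrays. The denervation value did not pass without scaling (adjusted p = 0.0659). None of these values passed with the processed values (adjusted p = 0.249, 0.0534 and 0.286). For miR-195 it was 1.47 after entrapment and 1.40 after decompression. The entrapment value did not pass without DRG entrapment 1 (adjusted p = 0.0571) or soleus entrapment 2 (adjusted p = 0.0514), and the decompression value did not pass when any 1 of 8 DRG arrays, all but entrapment 3, was left out (adjusted p up to 0.0648). Both were also lost under quantile normalization (adjusted p = 0.0685 and 0.0746), the block (0.0609 and 0.0696) and the processed values (0.152 and 0.565). The decompression value was lost with no filter too (0.0512). For miR-15b it was 1.77 after denervation, and it did not pass without soleus denervation 1 or 2 or DRG denervation 1, 2 or 3 (adjusted p up to 0.0748). Nor did it pass with no filter (adjusted p = 0.0565), without scaling (0.240) or with the processed values (0.423). Without soleus denervation 1 and 2 together, an alternative chosen after seeing the data, it was 1.15 and that of miR-195 after denervation was 1.37. Both values then rest on 1 soleus denervation array. For the cluster neighbour miR-450a the fitted value was 2.33 after entrapment and 2.73 after decompression. No soleus array of sham, entrapment or decompression detected it, so both values set the lower DRG signals against a soleus side near the floor and give no tissue difference of a measured size. The entrapment call was lost without soleus entrapment 2, DRG entrapment 1 or DRG entrapment 2 (adjusted p up to 0.0592). Both calls of miR-450a were lost without scaling, under quantile normalization, loess, the pseudocount and the block, and with the processed values (adjusted p from 0.0512 to 0.322).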

How the results depend on the processing

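Numbers are family members that passed. Given first are counts that moved by more than 1.5 times. In soleus against sham, the count after denervation went from 1 to 2 by the 2-fold rule, quantile normalization, loess, detection on all arrays and the pseudocount, to 3 with the other percentile set and the intensity trend, and to 0 with the processed values. After entrapment it went from 2 to 4 with the other percentile set, 0 with the processed values and 1 with the block, and after decompression from 2 to 1 without scaling and with the block and to 0 with the processed values. Between entrapment and denervation it went from 0 to 1 with the other percentile set. In the DRGs against sham, 0 became 1 after denervation with quantile normalization, after entrapment with quantile normalization, loess, the other percentile set and the block, and after decompression with the 2-fold rule, quantile normalization, loess and the block. Entrapment against denervation went from 2 to 4 without scaling and to 1 with quantile normalization, loess, no filter, detection on all arrays and the pseudocount, and decompression against denervation from 3 to 1 with quantile normalization and no filter. Soleus against DRG went from 5 to 3 without scaling, with quantile normalization and with loess, and to 2 with the processed values. The tissue difference went from 2 to 0 without scaling and to 1 with no filter after denervation, to 1 with the block after entrapment, to 1 with quantile normalization, no filter and the block after decompression, and to 0 with the processed values in all 3. Smaller moves were to 3 for soleus decompression against sham (other percentile set, quantile normalization), soleus entrapment against sham (quantile normalization, loess), DRG entrapment against denervation (intensity trend) and the tissue difference after entrapment (other percentile set), to 4 without scaling and 2 with detection on all arrays and the pseudocount for DRG decompression against denervation, and to 4 for soleus against DRG (other percentile set, detection on all arrays). The causes were not tested.

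Leaving out 1 array gave 1 to 3 in soleus after denervation, 2 to 3 after entrapment and 2 after decompression, and 0 between injury groups. In the DRGs it gave 0 after denervation and 0 to 1 after entrapment and after decompression against sham, 0 to 2 for entrapment and 1 to 3 for decompression against denervation, and 0 between these. It gave 4 to 6 for soleus against DRG, without soleus entrapment 2 and without soleus decompression 3, and for the tissue difference 1 to 2, 1 to 3 and 1 to 2.

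Among values that passed in at least 1 of the settings compared, directions turned for miR-103 between DRG decompression and denervation (-0.18 without scaling), for soleus against DRG in miR-16 (0.32 without scaling, 0.12 with loess, 0.72 with the other percentile set, 0.52 with the processed values), miR-503 (0.090) and miR-542-5p (0.38) with quantile normalization, miR-450a (0.56 with loess) and miR-15b (0.10 with the other percentile set), and for the tissue difference of miR-107 after entrapment (0.98 with the other percentile set). Among values that passed in neither, 89 of members and 131 of other listed miRNAs changed sign, such as miR-16 in soleus denervation against sham (-0.14, and -0.43 to 1.80 over the alternatives). Leaving out soleus denervation 1 and 2 together, chosen after seeing the data, left 1 soleus denervation array. The tissue difference after denervation then went from 1.77 to 1.15 for miR-15b and from 0.95 to 1.37 for miR-195. Whether the replicate numbers pair the arrays is not stated in anything given here. Deviations of same-numbered arrays correlated over 0.1 in 4 of 9 DRG pairs of groups, 1 of 9 soleus pairs and 3 of 9 pairs across tissues. Signal over background limits miR-503 and its neighbours, which lay near the floor on most soleus arrays.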
